A study of Homo sapiens with 30 samples.

Results

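SH-EP cells carrying MYCN were compared with parental SH-EP cells while both were exposed to CYC065. The comparison rests on 15 of the 30 RNA-Seq libraries of the series, chosen by line and treatment in the labels and by no measured value: 3 libraries of parental SH-EP (SHEP in the labels) and 3 of each of 4 MYCN lines, all treated with 1 μM CYC065 for 6 hours. SH-EP is an established human neuroblastoma (NB) cell line of mesenchymal identity without MYCN amplification. The MYCN lines are its stable derivatives, made by retroviral transfer of WT MYCN or of the phosphorylation-deficient mutants T58A, S62A, and T58A S62A, each under an exogenous promoter. Whether each line is a clone or a pool of cells is not given in the sources used here. The same 5 cell populations treated with DMSO, the vehicle, for 6 hours gave the other 15 libraries, which were used to ask which differences between MYCN lines and SH-EP were also present with the drug. All cells grew in the same serum-containing medium.

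MYCN is a transcription factor (TF) of the MYC family that binds DNA as a dimer with MAX, with the hexamer CACGTG as its canonical site. MYC proteins are known for raising the expression of genes for ribosome production, nucleotide synthesis, and cell cycle entry, and for lower expression of matrix and adhesion genes in cells that overexpress them. CYC065 inhibits CDK9 and CDK2. CDK9 with cyclin T1 forms P-TEFb, which phosphorylates RNA polymerase II and releases it into elongation, and CDK2 with cyclin E acts at entry into S phase. Transcripts with short half-lives are the first to be lost when elongation is blocked.

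Some of the genes described here hold the hexamer near their transcription start, as do 10.6% of all promoters searched. The following 30-base stretches of GRCh37, read on the strand of each gene with the hexamer in capitals, belong to 4 ribosome biogenesis genes (GNL3, RRP9, BYSL, and WDR43), to the purine synthesis gene PPAT, to the lactate dehydrogenase gene LDHA, and to 2 genes of the transcription kinases (CDK7 and CCNT1). They are shown as examples from the growth and P-TEFb lists described below. All are from genes higher in the MYCN lines with CYC065 as deposited. Promoters of lower genes hold the hexamer too (8.37%, against 13% for higher genes). A match of letters does not show that MYCN was bound.
GNL3, chr3:52720042-52720071, plus strand: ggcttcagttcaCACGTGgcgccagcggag
RRP9, chr3:51975908-51975937, minus strand: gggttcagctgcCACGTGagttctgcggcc
BYSL, chr6:41889253-41889282, plus strand: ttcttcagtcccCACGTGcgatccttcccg
WDR43, chr2:29117524-29117553, plus strand: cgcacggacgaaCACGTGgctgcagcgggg
PPAT, chr4:57301946-57301975, minus strand: aacggagatttcCACGTGcagcaaatacag
LDHA, chr11:18416011-18416040, plus strand: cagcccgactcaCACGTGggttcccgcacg
CDK7, chr5:68530596-68530625, plus strand: accgacaggcgtCACGTGacgggtggggaa
CCNT1, chr12:49110707-49110736, minus strand: ccgcccaacggtCACGTGacgcgcctgcgt

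Expression was given as FPKM, fragment counts scaled by transcript length and by the total of the library. An FPKM value is relative to all RNA in its own library, so levels with CYC065 are set here against SH-EP with CYC065 and not against levels with DMSO. The difference between lines was taken on log2(FPKM + 0.1) as the mean of the 4 MYCN lines, at equal weight, minus SH-EP, and a gene passed when its limma p, adjusted by the Benjamini-Hochberg method, was under 0.05. The 11575 genes averaging at least 1 FPKM were tested. The added 0.1 makes folds of low genes too small. The number of reads is unknown. Relative depth, read from the steps between low values with the deepest library of the series at 1, was 0.295 to 0.514 in the SH-EP libraries and 0.321 to 0.559 in the MYCN-line libraries, with overlapping ranges. Correlations between libraries of a group were 0.926 to 0.959. The labels do not say that libraries came from separate cultures, so p-values measure the spread between these libraries. That spread is taken within groups, so SEs and p-values leave out the variation between the 4 MYCN lines. Each MYCN form came as a single line, beside a single parental population. Each of the 6 SH-EP libraries shares its index sequence with a library of some MYCN line, and library pool and line cannot be told apart.

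ERCC spike-ins, synthetic RNAs added by cell number, took a larger share of the MYCN-line libraries. With CYC065, their median log2 FPKM averaged 5.33 in the MYCN lines against 3.96 in SH-EP. Scaling each library to its spike-ins therefore shifted the median difference between MYCN lines and SH-EP by -1.32 on the log2 scale. By line, the spike-in medians were 4.42 to 4.90 in T58A S62A, 4.84 to 4.89 in T58A, 5.48 to 5.86 in WT, and 6.05 to 6.33 in S62A. The shift thus differed between lines, and values of single lines below are as deposited. Differences below are on FPKM as deposited and are relative to the other genes of the library, and the value with spike-in scaling stands beside each gene group. In these bulk samples, fewer cells expressing a gene and less of its RNA per cell cannot be told apart. The gene lists used below were chosen with earlier results of these data known. Their counts are descriptions and no test of the lists.

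With CYC065, 4245 genes were higher in the MYCN lines (36.7% of the genes tested) and 3989 lower (34.5%), so that 51.6% of the genes past the threshold were higher as deposited and 2.92% with spike-in scaling. At least a 2-fold difference was present for 1004 of the higher and 1135 of the lower genes. In 2540 genes (21.9%), all 12 MYCN-line libraries lay above the 3 SH-EP libraries, and in 2654 (22.9%) all lay below. Each line alone gave a similar number of genes past the threshold, namely 7551 for WT, 7693 for T58A, 7739 for S62A, and 7654 for T58A S62A. These 4 comparisons share the SH-EP libraries.

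Most differences present without the drug were also present with it. With DMSO, 4008 genes were higher in the MYCN lines (34.6%) and 3039 lower (26.3%). Of those higher genes, 3063 (76.4%) were also higher with CYC065, 845 (21.1%) did not pass, and 100 (2.5%) were lower. Of the lower genes, 2682 (88.3%) were also lower with CYC065, 251 (8.26%) did not pass, and 106 (3.49%) were higher. The DMSO and CYC065 comparisons share no library. The 5745 genes past the threshold in the same direction were 81.5% of those past it with DMSO and 69.8% of those past it with CYC065.

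Differences that were larger without the drug were more often found with it. Among genes higher with DMSO by under 0.5 on the log2 scale, 65.2% were also higher with CYC065, against 89.4% of those between 0.5 and 1 and 94.3% of those of at least 1. Among the lower genes the shares were 83.9%, 90.9%, and 93.3%. For the lower genes of at least 1, the median difference was -1.48 with DMSO and -1.74 with CYC065. For the higher genes of at least 1, it was 1.37 and 1.34.

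Whether a difference changed with the drug was tested by the interaction, the CYC065 difference minus the DMSO difference. It passed for 3854 genes, upwards in 1499 (13%) and downwards in 2355 (20.3%), so that 38.9% were upwards as deposited, 46% with libraries centred on their median, and 68.4% with spike-in scaling, under which 706 passed. Its median over all genes was -0.11. Of the 2682 genes lower with both treatments, 985 were lower still with CYC065 and 27 less so. Of the 3063 genes higher with both, 652 were higher still and 322 less so. For 1670 and 2089 of these genes the interaction did not pass. A further 2283 genes passed with CYC065 only, among them 606 higher and 566 lower with the interaction also past the threshold.

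**Figure D1:**
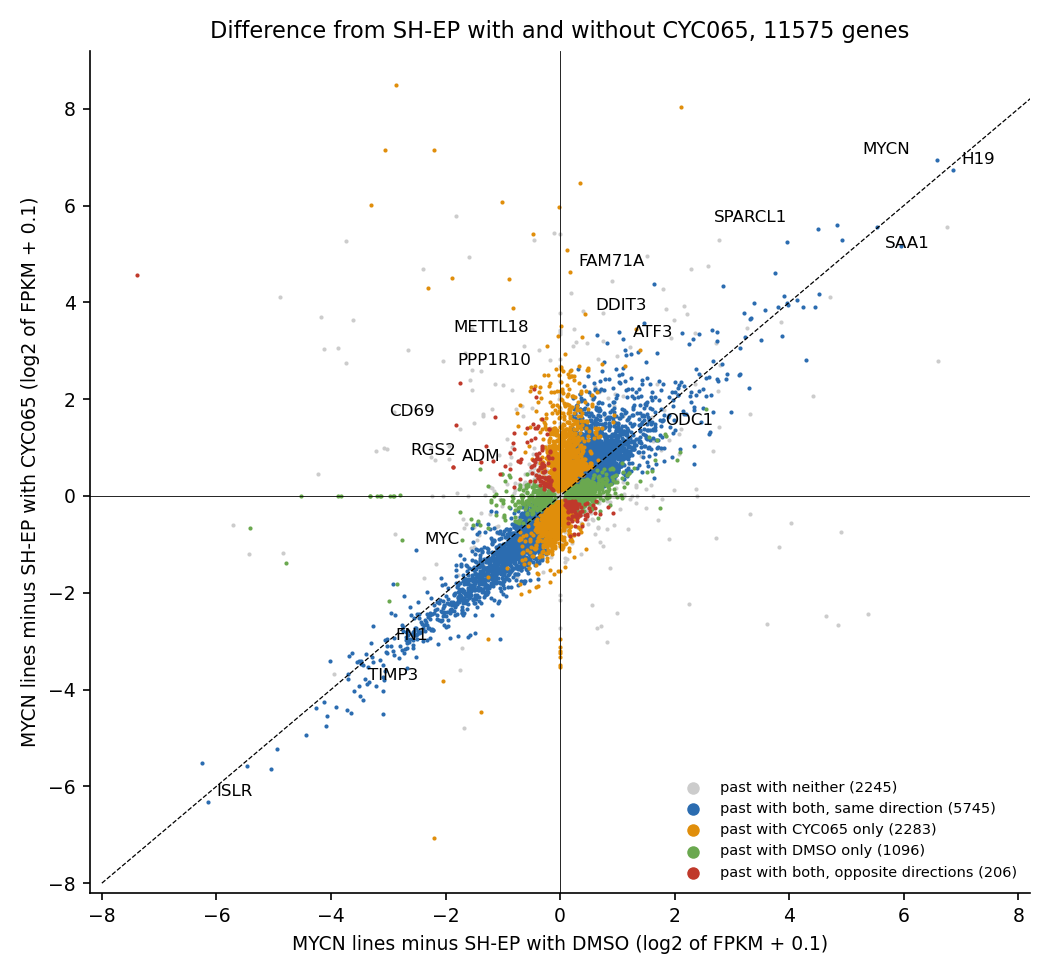
Difference between the MYCN lines and SH-EP with DMSO (x axis) and with CYC065 (y axis), both in log2 of FPKM + 0.1, for each of the 11575 genes tested, with the dashed line marking equal differences. The 5745 genes past the threshold in the same direction (blue) lie along the line, and the 2283 genes past it with CYC065 only (orange) spread along the vertical axis; on spike-in scaled values the whole cloud would sit lower on both axes.

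The transgene was checked first. MYCN (chromosome 2, 16080672 to 16087129 of GRCh37) was listed at 0 FPKM in the 3 SH-EP libraries with CYC065. It was at 18.7, 16.2, and 14.4 FPKM in the WT libraries and 10.6, 9.73, and 13.1 in T58A. S62A gave 6.89, 5.79, and 7.23 FPKM and T58A S62A 18.4, 20.1, and 16.5. All 12 MYCN-line libraries were thus above SH-EP, and the S62A libraries lay below those of the other lines. A value of 0 can be a failed estimate, and no fold is given.

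MYC, the paralog of MYCN (chromosome 8, 128747680 to 128755197), was lower in the MYCN lines with both treatments, but by less with CYC065. With CYC065 it was at 18.6, 16.7, and 17.0 FPKM in SH-EP and at 4.04 to 13.1 (median 8.14) in the MYCN lines, with T58A lowest and S62A highest. With DMSO it was at 5.51, 4.64, and 4.68 FPKM in SH-EP and at 0.377 to 1.93 (median 0.814) in the MYCN lines. The groups did not overlap in either treatment. The log2 difference was -1.11 ± 0.14 (SE, limma adjusted p = 1.09e-07) with CYC065 and -2.51 with DMSO, and the interaction was 1.40 (limma adjusted p = 5.86e-06). MXI1, a MAX partner that opposes MYC proteins, was higher by 1.44 with CYC065 (limma adjusted p = 9.6e-10). In the list of the MYC and MAX network, 9 of 16 genes were higher and 3 lower (36.7% and 34.5% of all genes tested), with a median of 0.24 that was -1.10 with spike-in scaling.

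The mesenchymal label of SH-EP was checked against its markers. The intermediate filament gene VIM was at 4534 to 4599 FPKM in SH-EP and 1981 to 2563 in the MYCN lines, with a log2 difference of -0.99 (limma adjusted p = 3.7e-18). CD44, a hyaluronan receptor, differed by -0.92 (limma adjusted p = 1.36e-18) and the mesenchymal TF gene PRRX1 by -1.03 (limma adjusted p = 5.22e-14). SNAI2, a TF of epithelial-mesenchymal transition, was at 9.15, 8.50, and 10.0 FPKM in SH-EP and 6.14 to 15.8 (median 11.3) in the MYCN lines with CYC065, where the groups overlapped. Its difference was 0.20 (limma adjusted p = 0.0671) with CYC065, -1.15 with spike-in scaling, and -1.26 with DMSO, and its interaction was 1.46 (limma adjusted p = 1.75e-08). WT and S62A lay above SH-EP for SNAI2, by 0.62 and 0.75, and T58A S62A was at -0.42.

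Of the adrenergic markers, PHOX2A, DBH, and CHGA were listed at 0 in all 15 libraries with CYC065. HAND2, a TF of sympathetic development, was at 27.7 to 31.1 FPKM in SH-EP and 23.1 to 31.0 in the MYCN lines, and did not pass (limma, -0.09, adjusted p = 0.174). It differed by -1.45 with spike-in scaling and by -0.28 with DMSO (limma adjusted p = 0.000236). GATA3 was at 4.63 to 5.04 FPKM in SH-EP and 1.89 to 8.88 in the MYCN lines (limma, -0.19, adjusted p = 0.173). It differed by -1.52 with spike-in scaling and by -0.52 with DMSO (limma adjusted p = 0.000882). The interaction passed for neither HAND2 nor GATA3. S62A was above SH-EP for GATA3, by 0.84, and T58A was at -1.23. Of 17 markers of epithelial, Schwann, blood, and endothelial cells, 14 were under 1 FPKM in all 15 libraries, and KRT5, KRT14, SOX10, CD3E, HBB, and CDH5 were among those at 0 in all. The summed level of the 17 was 45.6 to 50.7 FPKM in SH-EP and 9.15 to 16.7 in the MYCN lines, and almost all of it was S100B and CD68, both lower in the MYCN lines.

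The genes with large differences in all 4 lines included imprinted, secreted, and matrix genes. H19, an imprinted noncoding RNA (chromosome 11, 2016396 to 2025782), was at 10.4, 12.1, and 10.6 FPKM in SH-EP and at 521 to 2128 (median 1376) in the MYCN lines, with no overlap. Its log2 difference was 6.74 ± 0.09 (SE, limma adjusted p = 4.03e-26), from 5.63 in S62A to 7.42 in WT, and it was 6.87 with DMSO. IGF2, the growth factor gene of the same imprinted cluster, was at 2.15, 2.09, and 2.89 FPKM in SH-EP and 5.78 to 26.5 in the MYCN lines, a difference of 2.5 (limma adjusted p = 1.24e-16). SAA1, an acute-phase protein gene, was at 2.83, 1.29, and 0 FPKM in SH-EP and 26.7 to 51.4 in the MYCN lines. SPARCL1, a matricellular protein gene, was at 0, 0.0571, and 0 in SH-EP and 2.06 to 18.5 in the MYCN lines. No fold is given for SAA1 and SPARCL1 because of the values at 0. SNCG, which encodes gamma-synuclein, was higher by 3.94 (limma adjusted p = 3.33e-17) and MSLN, which encodes mesothelin, by 3.99. MSLN was at 0.162, 0.296, and 0.374 FPKM in SH-EP with CYC065. It met the filter on mean FPKM only through the MYCN lines, so no p is given for it.

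ISLR, a secreted protein gene of mesenchymal cells (chromosome 15, 74466051 to 74469213), had the most negative difference of the genes printed here. It was at 143, 140, and 141 FPKM in SH-EP and at 0.311 to 6.78 (median 1.52) in the MYCN lines, a log2 difference of -6.32 ± 0.30 (SE, limma adjusted p = 4.95e-15). Lines ranged from -4.52 in WT to -7.61 in S62A. ECM1, another matrix protein gene, differed by -4.26, STRA6, the retinol transporter, by -3.84, and SEMA5A, an axon guidance gene, by -3.79. The complement proteases C1R and C1S differed by -3.44 and -3.18 and the growth factor gene CLEC11A by -3.11, and each of these passed with all 12 MYCN-line libraries below SH-EP. WNT5A, a noncanonical WNT ligand, was at 31.1, 29.7, and 29.9 FPKM in SH-EP and 1.34 to 2.86 in the MYCN lines. Its difference was -3.92 with CYC065 and -3.21 with DMSO, an interaction of -0.71 (limma adjusted p = 0.00543; 0.076 with spike-in scaling). CLSTN3, a synaptic cadherin-like protein gene, also lay further below SH-EP with CYC065, at -3.05 against -2.13 (interaction -0.92, limma adjusted p = 4.78e-06).

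**Figure D2:**
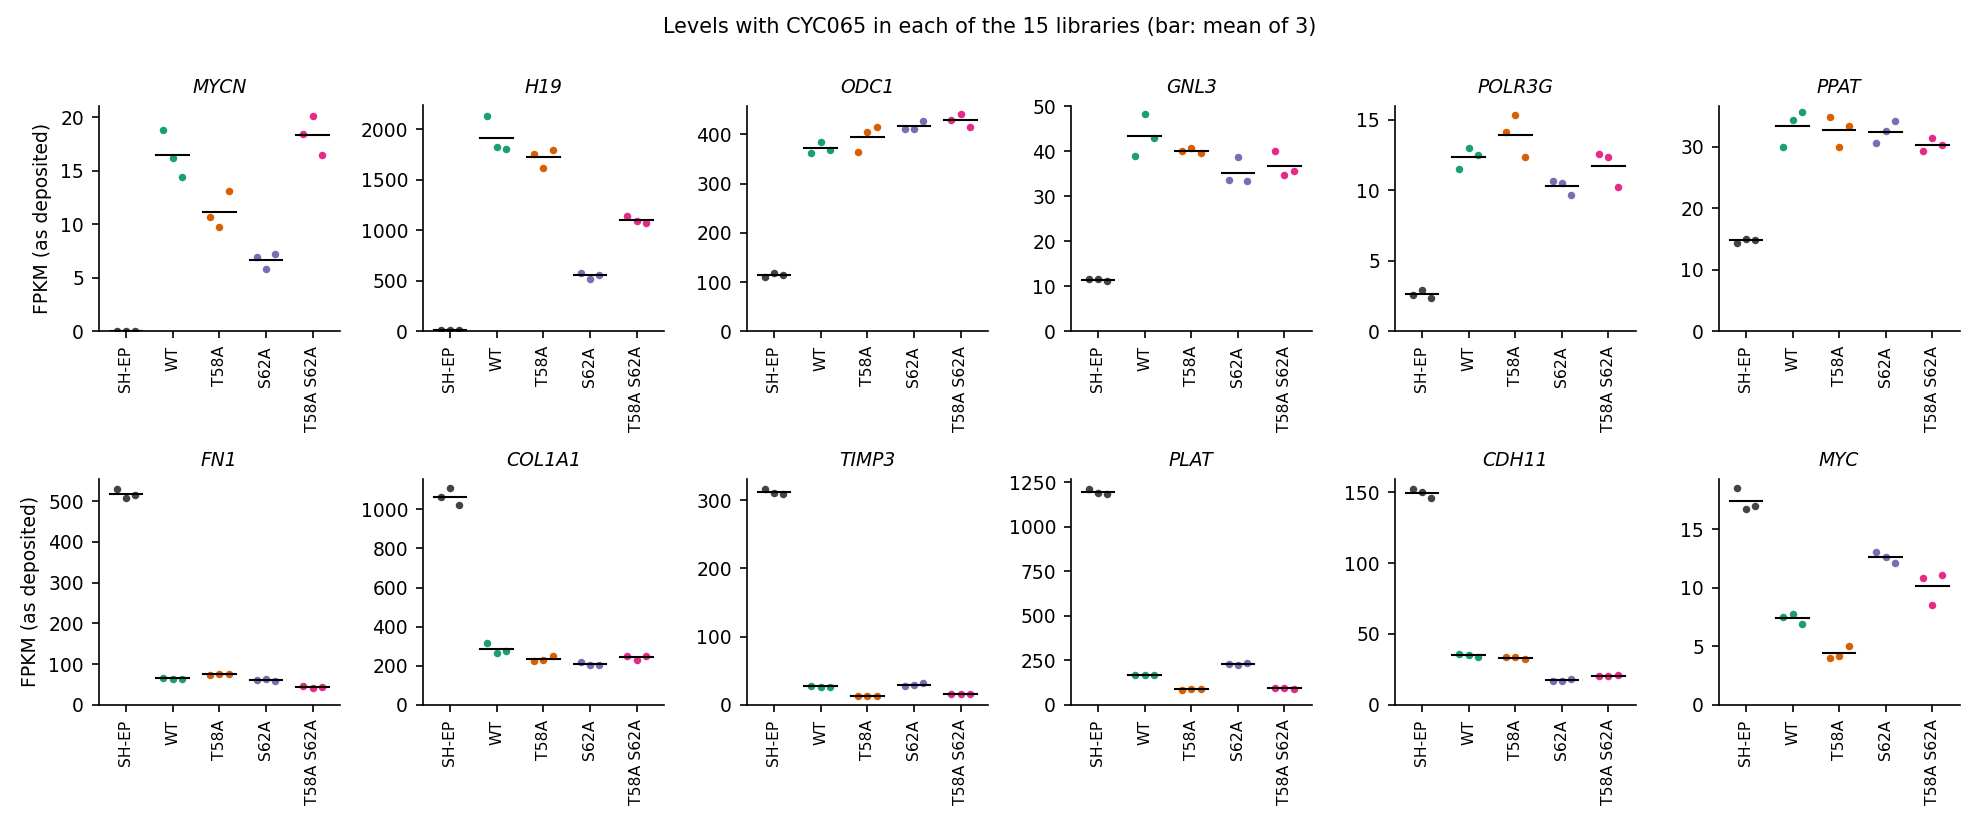
FPKM as deposited with CYC065 in each of the 15 libraries (points, 3 per line) for 12 genes, with a bar at the mean of each group. MYCN, H19, ODC1, GNL3, POLR3G, and PPAT lie above SH-EP in all 12 MYCN-line libraries, and FN1, COL1A1, TIMP3, PLAT, CDH11, and MYC lie below it; with spike-in scaling only PPAT of these changes its direction (-0.24).

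Ribosome biogenesis genes were higher in the MYCN lines with the drug as deposited, and many of them by more than without it, whereas with spike-in scaling most were not higher. All 36 tested genes of this list were higher with CYC065 (36.7% of all genes tested), with a median log2 difference of 0.98 against 0.02 over all genes tested; with spike-in scaling the median was -0.38, 3 were higher, and 19 lower. With DMSO, 35 were higher, with a median of 0.72. The interaction passed upwards in 19 (13% of all genes tested) and downwards in 0, and with spike-in scaling upwards in 2. In 32 of the 36, all 12 MYCN-line libraries lay above SH-EP, as in 21.9% of all genes tested. This list, like the others, was chosen with earlier results known, so its counts are no independent test.

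Within that list, GNL3, the nucleolar GTPase nucleostemin (chromosome 3, 52715172 to 52728513), was at 11.6, 11.7, and 11.2 FPKM in SH-EP and at 33.5 to 48.3 (median 39.3) in the MYCN lines with CYC065. With DMSO it was at 63.3, 60.8, and 65.5 FPKM in SH-EP and 93.7 to 141 in the MYCN lines. The log2 difference was 1.74 ± 0.06 (SE, limma adjusted p = 4.4e-18) with CYC065 and 0.87 with DMSO, and the interaction was 0.87 (limma adjusted p = 2.05e-08). RRS1, which assembles the large ribosomal subunit, gave 1.78 against 0.91 with the same interaction of 0.87 (limma adjusted p = 4.79e-05). POLR3G, a subunit of RNA polymerase III, was at 2.60, 2.93, and 2.38 FPKM in SH-EP and 9.66 to 15.3 in the MYCN lines, a difference of 2.14 (limma adjusted p = 9.93e-14). NOP16, a nucleolar protein gene, was higher by 1.61 (limma adjusted p = 2.66e-16). GNL3, RRS1, POLR3G, and NOP16 kept a positive difference with spike-in scaling.

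As deposited, genes of nucleotide synthesis and translation were also mostly higher, with medians below 0 on spike-in scaled values, and polyamine genes were mixed. In the list of nucleotide and one-carbon synthesis, 22 of 26 genes were higher and 3 lower with CYC065 (36.7% and 34.5% of all genes tested). Their median was 0.46, or -0.90 with spike-in scaling. The interaction was upwards in 3 and downwards in 12 (13% and 20.3% of all genes tested). PPAT, the first enzyme of purine synthesis, was at 14.4, 15, and 14.9 FPKM in SH-EP and 29.2 to 35.6 in the MYCN lines. Its difference was 1.12 (limma adjusted p = 1.6e-13; -0.24 with spike-in scaling) against 0.64 with DMSO (interaction 0.48, limma adjusted p = 0.000291, and 0.276 with spike-in scaling). PAICS, a later enzyme of that pathway, differed by 0.85 with CYC065 and 0.86 with DMSO. ODC1, the rate-limiting enzyme of polyamine synthesis (chromosome 2, 10580094 to 10588453), was at 111, 119, and 115 FPKM in SH-EP and at 362 to 442 (median 411) in the MYCN lines, with no overlap. That is a log2 difference of 1.81 ± 0.04 (SE, limma adjusted p = 1.39e-21) with CYC065, 0.44 with spike-in scaling, and 1.61 with DMSO. AMD1, the decarboxylase that supplies the aminopropyl donor for polyamines, differed by 1.20 against 0.41 (interaction 0.79, limma adjusted p = 1.39e-06, and 0.054 with spike-in scaling). Of the 9 polyamine genes, 3 were higher and 4 lower (36.7% and 34.5% of all genes tested), with a median of -0.12 that was -1.47 with spike-in scaling. Of 21 translation factors, 14 were higher and 2 lower (36.7% and 34.5% of all genes tested), the latter 1 without SH-EP library 1, among others. Their median was 0.34, or -1.02 with spike-in scaling. EEF1E1, a scaffold of the tRNA synthetase complex, differed by 1.07 with CYC065 and 1.06 with DMSO.

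Fewer amino acid genes were higher in the MYCN lines with the drug than without it. Among 28 amino acid transporters, tRNA synthetases, and related genes, 19 were higher and 2 lower with DMSO (34.6% and 26.3% of all genes tested). With CYC065, 12 were higher and 10 lower, near the shares of all genes tested (36.7% and 34.5%). The median went from 0.35 to 0.01 (-1.35 with spike-in scaling). The interaction was downwards in 22 and upwards in 3 (20.3% and 13% of all genes tested), or 6 and 1 with spike-in scaling. ASNS, asparagine synthetase, was at 28.0, 28.2, and 28.4 FPKM in SH-EP and 24.4 to 47.5 in the MYCN lines with DMSO, and at 58.4, 57.4, and 57.9 against 26.1 to 59.9 with CYC065. The groups overlapped in both treatments. Its difference was 0.30 with DMSO and -0.51 with CYC065, an interaction of -0.81 (limma adjusted p = 1.57e-08). AARS, alanyl-tRNA synthetase, went from 0.15 to -0.46 (interaction -0.61, limma adjusted p = 8.59e-09). PSAT1, an enzyme of serine synthesis, remained higher, by 0.54 against 1.19 with DMSO, but was lower with spike-in scaling (-0.82), and its interaction was -0.66 (limma adjusted p = 1.3e-07). ASNS, AARS, and PSAT1 were chosen after their values were seen, and their interactions also passed with spike-in scaling. DDIT3, the stress TF CHOP and also on this list, moved the other way and is given with the stress genes.

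Among 20 genes of glycolysis and glucose uptake, 9 were higher and 5 lower with CYC065 (36.7% and 34.5% of all genes tested), with a median of 0.14 that was -1.20 with spike-in scaling. With DMSO, 14 were higher and 2 lower (34.6% and 26.3%), with a median of 0.27. The interaction was downwards in 12 and upwards in 1 (20.3% and 13% of all genes tested), or 0 and 0 with spike-in scaling. The 2 genes given next were not lower with the drug than without it as deposited, unlike most of the list. HK2, the hexokinase induced in many tumors, was at 1.43, 1.37, and 1.24 FPKM in SH-EP and 4.65 to 9.42 in the MYCN lines. Its difference was 2.31 (limma adjusted p = 2.55e-18) against 1.80 with DMSO. LDHA, which makes lactate from pyruvate, was at 659, 629, and 615 FPKM in SH-EP and 1059 to 1364 in the MYCN lines. Its difference was 0.89 (limma adjusted p = 2.27e-14), or -0.47 with spike-in scaling, and 0.81 with DMSO.

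Most DNA replication genes were higher in the MYCN lines as deposited, with a median below 0 on spike-in scaled values. Of 32 such genes, 25 were higher and 0 lower with CYC065, the latter 1 without S62A library 1, against 36.7% and 34.5% of all genes tested, with a median of 0.49 that was -0.87 with spike-in scaling. CCNE2, a cyclin of CDK2, was at 1.35, 1.12, and 1.46 FPKM in SH-EP and 3.20 to 4.91 in the MYCN lines, and differed by 1.52 against 0.35 with DMSO (interaction 1.17, limma adjusted p = 3.07e-06). CCNE1, the other cyclin E gene, differed by 1.20 with CYC065 and 1.51 with DMSO, but was lower with spike-in scaling (-0.13). PRIM1, the primase subunit that starts DNA synthesis, differed by 1.45 (limma adjusted p = 8.24e-14). Of 26 mitosis genes, 14 were higher and 6 lower (36.7% and 34.5% of all genes tested), with a median of 0.19 that was -1.16 with spike-in scaling. The interaction was upwards in 11 and downwards in 2, against 13% and 20.3% of all genes tested. AURKA, the mitotic kinase that also stabilizes MYCN protein, was at 5.41, 5.90, and 6.41 FPKM in SH-EP and 13.7 to 27.1 in the MYCN lines. Its difference was 1.61 against 0.62 (interaction 0.98, limma adjusted p = 5.29e-09). CCNB1, the mitotic cyclin, differed by 1.16 (limma adjusted p = 5.05e-18; -0.20 with spike-in scaling).

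Matrix and adhesion genes stayed lower in the MYCN lines with the drug as deposited. Spike-in scaling lowered their differences further, as it did for genes in general, so it is no separate check of this. Of the matrix glycoprotein, proteoglycan, and remodelling genes, 33 of 40 were tested, and 31 were lower and 1 higher with CYC065 (34.5% and 36.7% of all genes tested). Their median was -1.35 (-2.71 with spike-in scaling) against -1.10 with DMSO. The interaction was downwards in 19 and upwards in 1 as deposited (20.3% and 13% of all genes tested), or 1 and 0 with spike-in scaling. TIMP3, an inhibitor of matrix metalloproteinases (chromosome 22, 33197691 to 33259028), was at 316, 310, and 309 FPKM in SH-EP and at 12.5 to 31.7 (median 21.7) in the MYCN lines. The T58A libraries were lowest, at 12.5, 13.4, and 13.5 FPKM. The log2 difference was -3.93 ± 0.04 (SE, limma adjusted p = 7.13e-29). FN1, fibronectin (chromosome 2, 216225163 to 216300796), was at 530, 508, and 514 FPKM in SH-EP and 41.7 to 76.2 in the MYCN lines, a difference of -3.10 with CYC065 and -3.03 with DMSO. The protease gene PLAT, tissue plasminogen activator, was at 1213, 1189, and 1187 FPKM in SH-EP and 84.6 to 237 in the MYCN lines (-3.17, limma adjusted p = 1.6e-28), and the proteoglycan gene DCN, decorin, differed by -3.48 (limma adjusted p = 2.97e-18).

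Of 15 collagen chains tested, 13 were lower and 1 higher with CYC065 (34.5% and 36.7% of all genes tested). Their median was -0.98 (-2.32 with spike-in scaling) against -0.59 with DMSO. The interaction was downwards in 11 of the 15 as deposited (20.3% of all genes tested) and in 0 with spike-in scaling. COL1A1, a chain of type I collagen (chromosome 17, 48261462 to 48278993), was at 1062, 1110, and 1024 FPKM in SH-EP and at 205 to 317 (median 240) in the MYCN lines. It differed by -2.14 against -1.74 (interaction -0.41, limma adjusted p = 0.00229, and 0.228 with spike-in scaling). COL3A1, the chain of type III collagen, differed by -1.64 (limma adjusted p = 1.39e-21).

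Of 19 integrins and adhesion genes tested, 17 were lower and 2 higher with CYC065 (34.5% and 36.7% of all genes tested), as with DMSO (26.3% and 34.6%). Their median with CYC065 was -1.41 (-2.77 with spike-in scaling). ITGA1, a collagen-binding integrin, was at 204, 200, and 194 FPKM in SH-EP and 25.6 to 49.8 in the MYCN lines (-2.53, limma adjusted p = 3.54e-21), and ITGA2, another collagen receptor, differed by -2.14. CDH11, a cadherin of mesenchymal cells (chromosome 16, 64977656 to 65160015), was at 153, 150, and 146 FPKM in SH-EP and at 16.7 to 35.9 (median 26.6) in the MYCN lines. It differed by -2.56 against -1.95 (interaction -0.61, limma adjusted p = 6e-09, and 0.033 with spike-in scaling). CDH13, a cadherin without a transmembrane segment, went the other way. It was at 0.210, 0.0781, and 0 FPKM in SH-EP and 1.07 to 6.47 in the MYCN lines, and no fold is given because of the 0.

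Contractile genes were lower as well, with 15 of 19 lower and 1 higher with CYC065 (34.5% and 36.7% of all genes tested). Their median was -0.61 (-1.98 with spike-in scaling) against -0.31 with DMSO. The interaction was downwards in 15 of the 19 as deposited (20.3% of all genes tested) and in 0 with spike-in scaling. TAGLN, an actin-binding protein of smooth muscle, differed by -2.07 (limma adjusted p = 6.16e-15), with S62A at -2.83 and T58A at -1.50. CALD1, caldesmon, was at 238, 238, and 237 FPKM in SH-EP and 73.0 to 117 in the MYCN lines (-1.46, limma adjusted p = 2.47e-19).

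Genes of the TGF-β pathway, which controls many matrix genes, lay on both sides of SH-EP. Of 23 genes, 13 were lower and 8 higher with CYC065 (34.5% and 36.7% of all genes tested), the latter 5 without SH-EP library 3, the shallowest SH-EP library, and the median was -0.76 (-2.07 with spike-in scaling). The receptor gene TGFBR2 (chromosome 3, 30648093 to 30735634) was at 39.9, 39.3, and 44.1 FPKM in SH-EP and 8.95 to 12.9 in the MYCN lines, a difference of -1.89 (limma adjusted p = 5.81e-18). LTBP1, which holds latent TGF-β in the matrix, differed by -2.17 (limma adjusted p = 2.87e-19). TGIF1, a SMAD corepressor, was at 5.89, 5.10, and 5.12 FPKM in SH-EP and 15.6 to 37.2 in the MYCN lines, a difference of 2.11 against 0.34 with DMSO (interaction 1.77, limma adjusted p = 5.99e-11). SMAD6, an inhibitory SMAD, was higher by 1.70 (limma adjusted p = 2.82e-12). TGIF1 and SMAD6 kept a positive difference with spike-in scaling.

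Interferon-stimulated and MHC class I genes were lower in 20 of 27 cases and higher in 2 with CYC065 (34.5% and 36.7% of all genes tested), the latter 1 without SH-EP library 2 and 3 without S62A library 3, with a median of -0.43 (-1.76 with spike-in scaling). HLA-B, an antigen-presenting molecule with near-identical paralogs among which reads can be split, was at 6.54, 7.72, and 6.98 FPKM in SH-EP and 0.112 to 3.95 (median 0.740) in the MYCN lines. The immunoproteasome gene PSMB9 differed by -1.61 (limma adjusted p = 1.02e-10) and STAT2, a TF of the interferon response, by -1.69 (limma adjusted p = 7.18e-13). Of 20 cholesterol and fatty acid genes, 12 were lower and 3 higher (34.5% and 36.7% of all genes tested), the latter 5 without SH-EP library 2. Their median was -0.24 (-1.60 with spike-in scaling).

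**Figure D3:**
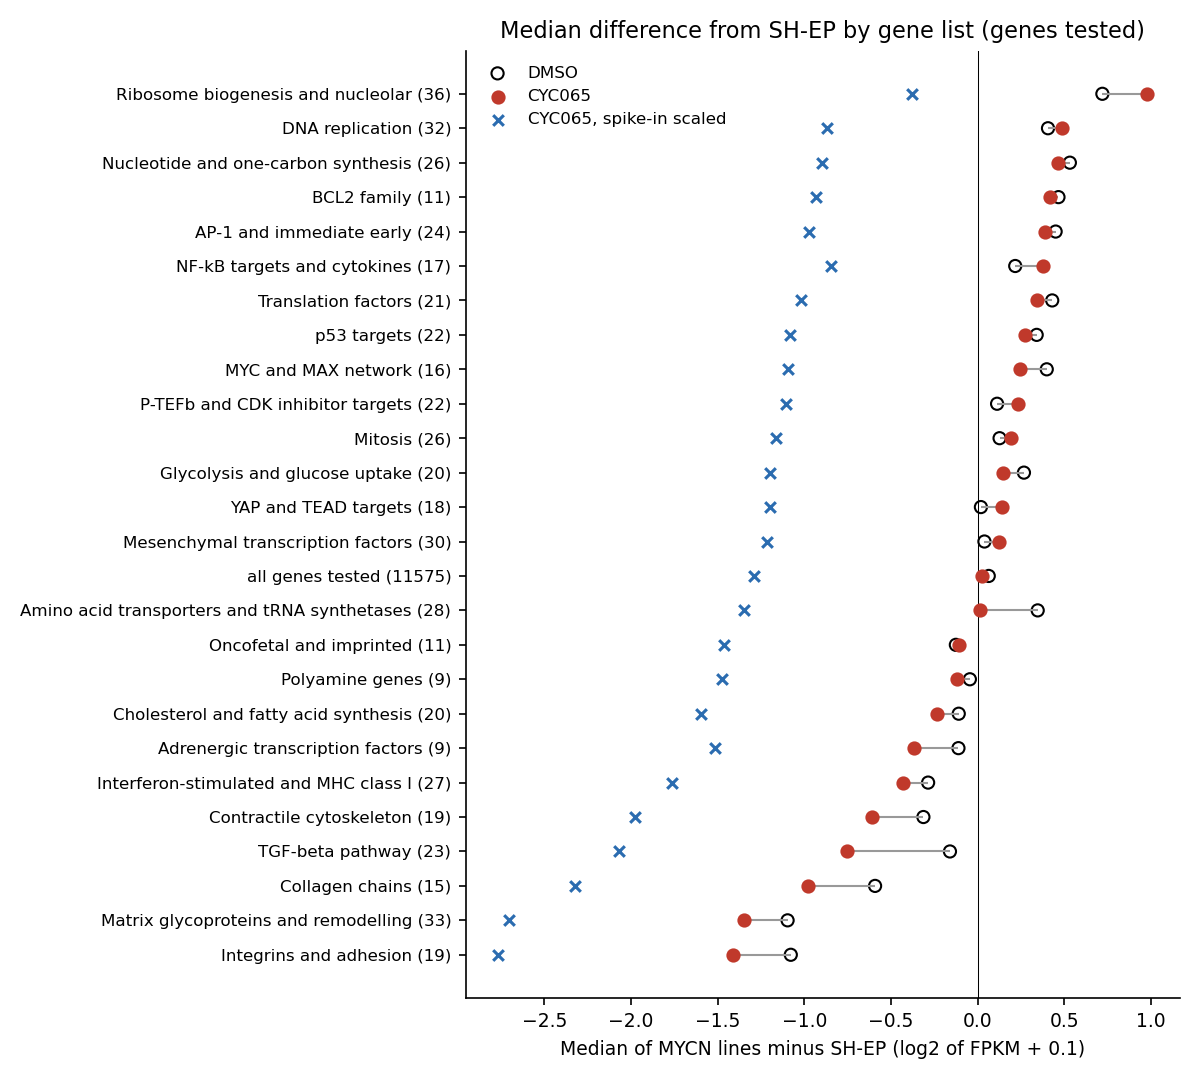
Median difference between the MYCN lines and SH-EP over the tested genes of each list (number in brackets), in log2 of FPKM + 0.1, with DMSO (open circles), with CYC065 (filled circles), and with CYC065 on spike-in scaled values (crosses). As deposited the lists run from -1.41 for integrins and adhesion to 0.98 for ribosome biogenesis; with spike-in scaling every median is negative and the ribosome biogenesis list, at -0.38, is still the highest.

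Immediate early and inflammatory genes included some of the widest differences seen with the drug. Of 24 AP-1 and immediate early genes, 15 were higher and 6 lower with CYC065 (36.7% and 34.5% of all genes tested), with a median of 0.39 that was -0.97 with spike-in scaling. The interaction was upwards in 8 and downwards in 8 (13% and 20.3% of all genes tested), or 2 and 3 with spike-in scaling. ATF3, a stress-induced TF of the ATF family (chromosome 1, 212738676 to 212794119), was at 10.2, 8.84, and 9.11 FPKM in SH-EP and at 64.3 to 125 (median 91.6) in the MYCN lines with CYC065. With DMSO it was at 2.75, 2.17, and 2.64 FPKM in SH-EP and 3.96 to 7.70 in the MYCN lines. The groups did not overlap in either treatment. The difference was 3.24 ± 0.09 (SE, limma adjusted p = 1.14e-19) with CYC065 and 1.10 with DMSO, an interaction of 2.14 (limma adjusted p = 8.23e-12). KLF4, a growth-restraining TF, differed by 2.48 against 0.48 (interaction 2, limma adjusted p = 3.74e-10). FOSB, an AP-1 subunit, differed by 2.52 with CYC065 and 2.91 with DMSO. ATF3, KLF4, and FOSB kept a positive difference with spike-in scaling.

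DDIT3 was at 0.535, 0.891, and 0 FPKM in SH-EP and at 2.88 to 10.2 (median 5.18) in the MYCN lines with CYC065, and at 8.22, 7.06, and 7.72 against 6.31 to 15.6 with DMSO. Its groups were apart with the drug and overlapped without it. The interaction was 3.32 (limma adjusted p = 3.12e-05), a value that depends on the constant added to FPKM because of the 0. Of 17 NF-κB targets and cytokines, 9 were higher and 5 lower with CYC065 (36.7% and 34.5% of all genes tested), with a median of 0.38 that was -0.85 with spike-in scaling. TNFAIP3, the NF-κB feedback inhibitor A20, was at 1.40, 1.28, and 0.873 FPKM in SH-EP and 3.79 to 16.4 in the MYCN lines, a difference of 3.01 against 1.14 (interaction 1.88, limma adjusted p = 9.3e-07). The chemokine gene CCL2 was listed at 0 in the 3 SH-EP libraries and was at 0.283 to 9.95 FPKM in the MYCN lines. Of 22 p53 targets, 12 were higher and 5 lower (36.7% and 34.5% of all genes tested), with a median of 0.27 that was -1.08 with spike-in scaling. The p53 list's interaction was upwards in 4 and downwards in 8 (13% and 20.3% of all genes tested), or 0 and 2 with spike-in scaling. Leaving out 1 library lowered these counts to as few as 2 and 5 as deposited. CDKN1A, the CDK inhibitor p21, was at 164, 158, and 168 FPKM in SH-EP and 160 to 320 in the MYCN lines, where the groups overlapped. CDKN1A was chosen after its values were seen. It differed by 0.56 with CYC065 (-0.80 with spike-in scaling) and -0.11 with DMSO (interaction 0.67, limma adjusted p = 3.57e-09, and 0.119 with spike-in scaling).

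Of 18 YAP and TEAD targets, 8 were higher and 8 lower, against 36.7% and 34.5% of all genes tested, with a median of 0.14 that was -1.20 with spike-in scaling. AMOTL2, a YAP-binding feedback inhibitor, was at 9.77, 9.68, and 9.18 FPKM in SH-EP and 23.4 to 55.3 in the MYCN lines with CYC065, and at 34.5, 38.1, and 31.6 against 30.6 to 39.5 with DMSO. Its groups were apart only with the drug, and it differed by 1.99 against 0.04 (interaction 1.95, limma adjusted p = 3.96e-16). ANKRD1, a nuclear ankyrin repeat protein, differed by 1.80 with CYC065 and 1.27 with DMSO. CTGF, a matricellular growth factor, differed by 1.02 and 0.15, but with spike-in scaling it was lower with CYC065 (-0.34).

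As deposited, the genes of the drug's own targets differed modestly between lines, and with spike-in scaling both were lower in the MYCN lines. CDK9 was at 11.9, 12.1, and 11 FPKM in SH-EP and 11.7 to 18.2 in the MYCN lines, a difference of 0.46 (limma adjusted p = 2.78e-06) that was -0.89 with spike-in scaling; its interaction was 0.34 (limma adjusted p = 0.0106, and 0.521 with spike-in scaling). CDK2 was at 55.1, 56.3, and 61.0 FPKM in SH-EP and 44.7 to 66.6 in the MYCN lines, a difference of -0.14 (limma adjusted p = 0.0276) that did not pass without SH-EP library 3 (-0.10, adjusted p = 0.192). With spike-in scaling the CDK2 difference was -1.50. MCL1, an antiapoptotic gene with a short-lived transcript, was at 120, 121, and 115 FPKM in SH-EP and 117 to 135 in the MYCN lines, a difference of 0.09 (limma adjusted p = 0.0952) that was -1.27 with spike-in scaling, and without WT library 1 it passed at 0.11 (adjusted p = 0.0303). Of 11 BCL2 family genes, 7 were higher and 1 lower (36.7% and 34.5% of all genes tested), with a median of 0.42 that was -0.93 with spike-in scaling.

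In the list of P-TEFb genes and CDK inhibitor targets, 14 of 22 were higher and 6 lower with CYC065 (36.7% and 34.5% of all genes tested), with a median of 0.23 that was -1.11 with spike-in scaling. With DMSO 8 were higher and 1 lower (34.6% and 26.3%). HEXIM1, which holds P-TEFb inactive (chromosome 17, 43225842 to 43229466), was at 3.74, 3.26, and 3.96 FPKM in SH-EP and at 7.72 to 14.8 (median 10.3) in the MYCN lines with CYC065. With DMSO it was at 10.1, 10.7, and 11.2 FPKM in SH-EP and 8.74 to 14.8 in the MYCN lines. The groups overlapped with DMSO and were apart with CYC065. The difference was 1.5 against 0.06 (interaction 1.44, limma adjusted p = 4.63e-10). CDK7, the kinase of TFIIH, differed by 1.79 against 0.63 (interaction 1.16, limma adjusted p = 2.08e-07). CCNT1, cyclin T1, differed by 1.07 against 0.21 (interaction 0.86, limma adjusted p = 4.12e-07), but was lower with spike-in scaling (-0.29).

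Of 30 mesenchymal TFs, 12 were higher and 11 lower with CYC065, against 36.7% and 34.5% of all genes tested, with a median of 0.12 that was -1.22 with spike-in scaling. ZNF217, a zinc finger TF, was at 3.21, 3.84, and 2.89 FPKM in SH-EP and 12.1 to 16.9 in the MYCN lines, a difference of 2.15 against 0.51 with DMSO (interaction 1.64, limma adjusted p = 5.23e-10). SIX4, a homeobox TF, differed by 1.54 against 0.16 (interaction 1.37, limma adjusted p = 4.26e-07), and DLX1, another homeobox TF, by 1.46 with CYC065. Of 25 adrenergic TFs, 9 were tested, and 5 were lower and 1 higher with CYC065 (34.5% and 36.7% of all genes tested), the latter 2 without S62A DMSO library 3. Their median was -0.37 (-1.52 with spike-in scaling). With DMSO, 3 of the 9 were higher and 3 lower (34.6% and 26.3% of all genes tested). Only 1 was lower with both treatments, as were 2682 of all 11575 genes tested. TBX2, a T-box TF, was at 27.3, 27.9, and 29.99 FPKM in SH-EP and 9.96 to 16.2 in the MYCN lines, a difference of -1.06 against -0.45 (interaction -0.60, limma adjusted p = 0.000143, and 0.052 with spike-in scaling). GATA2, a zinc finger TF, was the higher gene, by 1.02 (limma adjusted p = 4.6e-10; -0.33 with spike-in scaling).

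In 206 genes the difference passed in opposite directions with the 2 treatments. ADM, the vasodilator peptide adrenomedullin (chromosome 11, 10326620 to 10328944), was at 49.1, 45.9, and 45.6 FPKM in SH-EP and at 9.94 to 15.8 (median 12.6) in the MYCN lines with DMSO. With CYC065 it was at 25.5, 22.0, and 27.2 FPKM in SH-EP and at 30.2 to 50.1 (median 36.8) in the MYCN lines. SH-EP was thus above every MYCN-line library without the drug and below every one with it. The difference was -1.86 with DMSO and 0.60 ± 0.08 (SE, limma adjusted p = 4.74e-07) with CYC065, an interaction of 2.46 (limma adjusted p = 1.06e-13). With spike-in scaling ADM was lower in the MYCN lines with CYC065 too (-0.76), and the interaction was 2.35.

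RGS2, a brake on G protein signalling (chromosome 1, 192778169 to 192781405), followed the same course. With DMSO it was at 275, 260, and 280 FPKM in SH-EP and 70.6 to 149 in the MYCN lines, and with CYC065 at 85.9, 79.1, and 77.4 against 105 to 178. It differed by -1.37 with DMSO and 0.71 with CYC065 (-0.65 with spike-in scaling), an interaction of 2.09 (limma adjusted p = 1.52e-18). CD69, a lectin known from activated lymphocytes, was at 7.55, 8.76, and 8.52 FPKM in SH-EP and 1.24 to 4.74 in the MYCN lines with DMSO, and at 4.09, 5.07, and 3.66 against 5.64 to 18.7 with CYC065. It differed by -1.82 and 1.47 (interaction 3.30, limma adjusted p = 1.66e-11), and S62A, at 0.67, was the closest line to SH-EP with CYC065. ARRDC3, an arrestin-domain adaptor, differed by -0.48 and 1.49 (interaction 1.97, limma adjusted p = 2.1e-10), EXOC8, a subunit of the exocyst, by -0.39 and 1.45 (interaction 1.84, limma adjusted p = 4.84e-11), and SPRY1, an inhibitor of receptor tyrosine kinase signalling, by -0.40 and 1.41 (interaction 1.81, limma adjusted p = 1.57e-08). On spike-in scaled values the CYC065 differences of CD69, ARRDC3, EXOC8, and SPRY1 were 0.07 to 0.14.

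Other genes were at like levels in all lines without the drug and apart with it, except DNAAF2, which was apart in both. PPP1R10, a regulatory subunit of protein phosphatase 1 (chromosome 6, 30568190 to 30586389), was at 14.6, 15, and 14.8 FPKM in SH-EP and at 12.9 to 17.0 (median 14.7) in the MYCN lines with DMSO. With CYC065 it was at 0.536, 0.293, and 0.510 FPKM in SH-EP and at 2.31 to 4.07 (median 3.28) in the MYCN lines, with no overlap. It differed by 0.02 and by 2.62 ± 0.14 (SE, limma adjusted p = 4.76e-14), an interaction of 2.60 (limma adjusted p = 8.55e-10). METTL18, a histidine methyltransferase, was at 13.5, 13.1, and 13.8 FPKM in SH-EP and 10.4 to 17.3 in the MYCN lines with DMSO, and at 0.728, 0.332, and 0.193 against 2.30 to 8.30 with CYC065. It differed by -0.04 and 3.30 (interaction 3.34, limma adjusted p = 6.64e-09). DNAAF2, a factor for dynein arm assembly, differed by 0.64 and 3.33 (interaction 2.69, limma adjusted p = 1.28e-10). FAM71A was at 0.653, 0.265, and 0.230 FPKM in SH-EP and 6.55 to 17.6 in the MYCN lines with CYC065. With DMSO it was listed at 0 in SH-EP and at 0 to 0.192 FPKM in the MYCN lines, and its interaction was 4.45. FAM71A met the filter on mean FPKM only through the MYCN-line libraries with CYC065, so no p is given for it. The interactions of PPP1R10, METTL18, and DNAAF2 also passed with spike-in scaling. PPP1R10 and DNAAF2 were chosen after their values were seen.

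**Figure D4:**
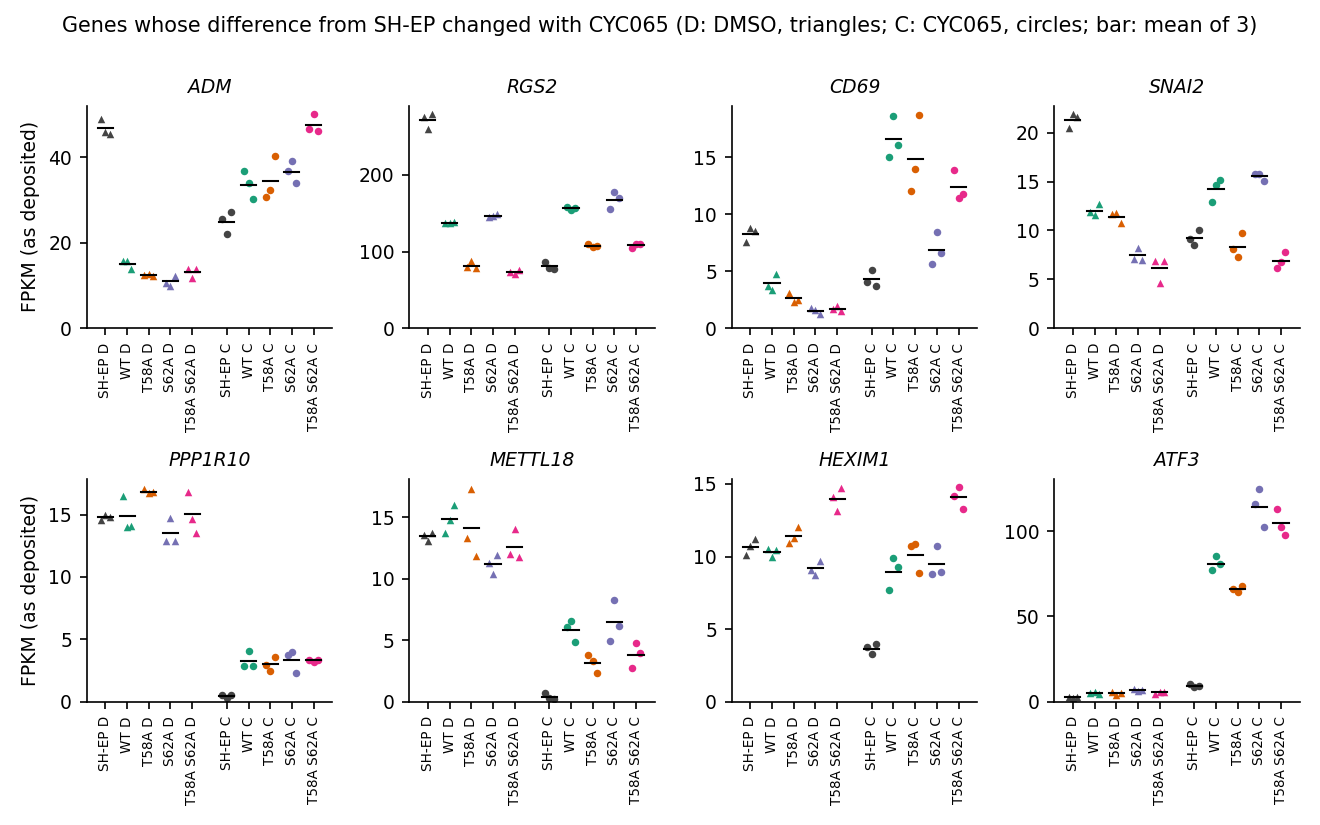
FPKM as deposited in each library (3 per line) with DMSO (D, triangles) and CYC065 (C, circles) for 8 genes whose difference from SH-EP changed with the drug, with a bar at the mean of each group. For ADM, RGS2, and CD69, the SH-EP libraries lie above every MYCN-line library with DMSO and below every one with CYC065 (with spike-in scaling ADM and RGS2 are lower in the MYCN lines with CYC065 too), and PPP1R10 and METTL18 are apart only with CYC065.

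Promoters were searched for the hexamer shown above. CACGTG reads the same on both strands, so 1 search covers both, and the window ran from 250 bases before to 50 bases after the start of the canonical transcript in GRCh37. A start was found for 11077 of the 11575 genes (95.7%), and 1170 of these promoters (10.6%) held the hexamer. It was present in 14.3% of promoters of genes higher in the MYCN lines with both treatments (433 of 3019), 9.96% of those higher with CYC065 only, and 14% of those higher with DMSO only. For genes lower with both treatments the share was 7.02% (186 of 2651), and for those lower with CYC065 only it was 10.9%. Genes at least 2-fold higher with CYC065 had it in 14.2% (135 of 954) and those at least 2-fold lower in 4.25% (47 of 1106). These shares are descriptions without a test.

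The lists differed more. Ribosome biogenesis promoters held the hexamer in 15 of 35 (42.9%), nucleotide synthesis promoters in 5 of 26 (19.2%), and translation factor promoters in 5 of 21 (23.8%). Of DNA replication promoters 9.38% held it, close to the share of all promoters. None was found in the windows of 15 collagen chains, 33 matrix genes, 19 integrins and adhesion genes, and 19 contractile genes, which says only that these letters are not in those windows. The AP-1 and immediate early genes held it in 3 of 24 (12.5%), KLF4 among them.

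**Figure D5:**
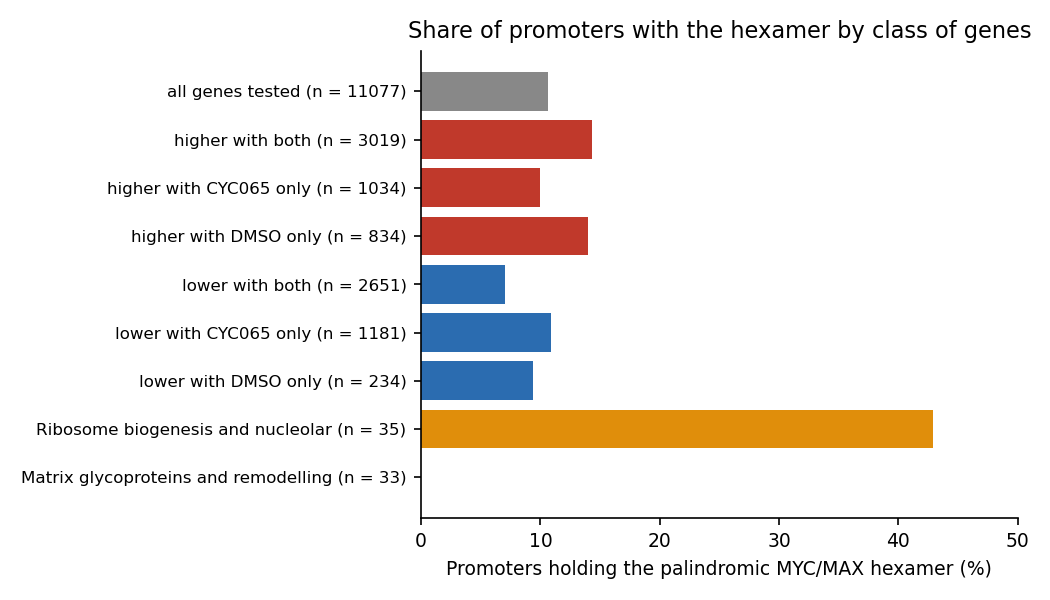
Percent of promoters that hold the hexamer, in a window from 250 bases before to 50 after the start, for all genes tested and for genes by direction with each treatment (bars, with the number of promoters). Genes higher with both treatments stand at 14.3%, those lower with both at 7.02%, and the ribosome biogenesis list at 42.9%, against 10.6% of all; directions are those of FPKM as deposited, and with spike-in scaling 2.92% of the genes past the threshold were higher with CYC065.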

How the data were processed

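Per the labels and the paper's methods, ERCC spike-ins were added according to cell number, poly(A) RNA was selected, libraries were strand specific, and the authors aligned reads with HISAT2 to hg19 and computed FPKM with Cufflinks. The annotation is not given in the sources used here. The deposited FPKM table holds 26228 genes and 92 spike-ins, is not scaled to the spike-ins, and has 0 columns of other samples. Exact zeros can be failed estimates.

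Groups came from the labels. In R 4.3.3, limma 3.58.1 (lmFit and eBayes with trend = TRUE, two-sided) was fitted to log2(FPKM + 0.1) of genes averaging at least 1 FPKM across the 30 libraries, in 1 fit over 10 groups, with contrasts for each treatment, their interaction, and each line. The threshold was a Benjamini-Hochberg adjusted p of 0.05 over all genes. Spike-in scaling made the median log2 level of 55 spike-ins equal. The script was tested on simulated data. Promoters and positions are those of GRCh37 with lifted GENCODE canonical transcripts. No count test was used, since FPKM keep no read counts, and no counting interval can be given.

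Named genes are MYCN, MYC, CDK9, CDK2, and MCL1; the 10 higher and 10 lower genes with the largest smallest line difference (all 12 libraries on 1 side of SH-EP, mean of at least 5 FPKM with CYC065); up to 4 genes per list with the largest CYC065 difference; and the 8 genes with the largest interaction of each kind (smaller or turned, and larger with CYC065). Some are not printed, among them short noncoding RNA genes with zeros, and genes added after their values were seen are named as such. A few genes are not reported here. Cell type markers are also given. The gene lists and members were chosen with earlier results of these data known. Alternatives were other pseudocounts, filters, scalings and fits, a 1.5-fold minimum, and leaving out each library or line.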

Additional observations from a re-analysis of the deposited data

Results flagged for a closer look

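The difference between the MYCN lines and SH-EP changed between DMSO and CYC065, by limma's interaction test, in 3854 genes. Values below are the log2 difference with CYC065 minus that with DMSO for the genes named above, and each passed the adjusted threshold. Among stress, immediate early, and feedback genes, the change was 3.32 for DDIT3, 2.14 for ATF3, 2 for KLF4, 1.88 for TNFAIP3, 1.95 for AMOTL2, 1.81 for SPRY1, 2.09 for RGS2, 1.97 for ARRDC3, 3.30 for CD69, 2.46 for ADM, and 0.67 for CDKN1A. These named genes all went upwards, whereas the AP-1 and immediate early list as a whole had 8 upwards and 8 downwards (13% and 20.3% of all genes tested). Among genes of the transcription kinases it was 1.44 for HEXIM1, 1.16 for CDK7, 0.86 for CCNT1, and 0.34 for CDK9. For TFs and their partners it was 1.77 for TGIF1, 1.64 for ZNF217, 1.46 for SNAI2, 1.40 for MYC, 1.37 for SIX4, and -0.60 for TBX2.

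Growth and cell cycle genes gave 0.87 for GNL3 and for RRS1, 0.79 for AMD1, 0.48 for PPAT, 1.17 for CCNE2, and 0.98 for AURKA. Amino acid genes gave -0.81 for ASNS, -0.66 for PSAT1, and -0.61 for AARS. Matrix, adhesion, and signalling genes gave -0.41 for COL1A1, -0.61 for CDH11, -0.71 for WNT5A, and -0.92 for CLSTN3. The remaining changes were 4.45 for FAM71A, 3.34 for METTL18, 2.69 for DNAAF2, 2.60 for PPP1R10, and 1.84 for EXOC8. FAM71A was listed at 0 in all SH-EP libraries with DMSO and DDIT3 in 1 SH-EP library with CYC065, so these values depend on the constant added to FPKM. FAM71A also met the filter on mean FPKM only through the MYCN-line libraries with CYC065, so its passing is no test. Of the 62 genes printed above whose interaction passed, 35 also passed with spike-in scaling in the same direction.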

How the results depend on the processing

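With spike-in scaling, 300 genes were higher and 9980 lower with CYC065, 10688 passed with DMSO, 9808 passed in the same direction with both treatments, and the interaction passed in 706 genes, upwards in 483 and downwards in 223. With a difference of at least 1.5-fold also required, 4414 genes passed with CYC065 (2180 higher and 2234 lower), or 4356 for WT, 4538 for T58A, 4602 for S62A, and 4555 for T58A S62A, with 2749 for DMSO, 2194 in the same direction, and 1321 for the interaction (854 upwards and 467 downwards). Leaving out each library in turn gave 7668 to 8320 genes with CYC065 (3953 to 4288 higher, 3711 to 4032 lower), 7087 to 7660 in WT, 7254 to 7790 in T58A, 7307 to 7868 in S62A, 7219 to 7775 in T58A S62A, 6240 to 7116 with DMSO, 5242 to 5793 in the same direction, and 3142 to 4123 for the interaction (1296 to 1563 upwards, 1846 to 2560 downwards). The other alternatives kept these counts within 1.5 times.

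Among the 93 printed genes, 17 turned negative with CYC065 on spike-in scaled values: CDK9 (-0.887), MCL1 (-1.27), PPAT (-0.239), PAICS (-0.513), AMD1 (-0.157), EEF1E1 (-0.293), LDHA (-0.468), PSAT1 (-0.824), CCNE1 (-0.133), CCNB1 (-0.200), CCNT1 (-0.287), GATA2 (-0.326), CTGF (-0.341), CDKN1A (-0.799), ADM (-0.761), RGS2 (-0.651), and SNAI2 (-1.15). GATA3 was at 0.158 without the T58A line. Of the 56 printed genes that were higher, 41 stayed positive with that scaling. All 33 lower genes stayed negative, which is no check of them, since the scaling shifted the median difference by -1.32. SNAI2 passed at 0.199 to 0.260 in 5 fits that left out 1 library. No paired analysis was possible because the table's columns carry no replicate number that matches the labels. The depth in reads is unknown, so what depth limits could not be computed.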
